A study of Mus musculus with 7 samples.

Results

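The Zfp genes of the mouse, a numbered series of zinc finger genes, were examined in germinal vesicle (GV) oocytes with and without the histone methyltransferase gene Setd1b. The members were selected on their measured level, as the genes whose symbol is Zfp followed only by digits, whose deposited transcript lay on the gene's own strand and whose mean over the 7 libraries was at least 1 RPM. RPM gives a transcript's reads relative to all reads mapped in that oocyte. By this rule 204 genes were members, out of 262 Zfp genes on their own strand and 33437 transcripts in all, and 58 Zfp genes lay under 1 RPM. Where a gene had several transcripts, the one with the highest mean was taken. Because the level chose the members, levels are a description and carry no test. Just inside the limit lay Zfp384 at 1.06 and Zfp575 at 1.06 RPM, and just outside it lay Zfp661 at 0.9004 and Zfp850 at 0.881 RPM.

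Each library held the cDNA of 1 GV oocyte, a fully grown oocyte arrested before the first meiotic division, from a 21-day-old female of strain C57BL6 (by the study's methods, C57BL/6OlaHsd). In 4 libraries the female was floxed for Setd1b on both alleles and carried Gdf9-Cre (Setd1b cKO). In 3 libraries the female had the same floxed alleles without the Cre (Setd1b WT), so both genotypes shared the floxed gene and differed in the Cre. Gdf9-Cre is driven by the promoter of an oocyte growth factor gene and deletes from the early growing follicle onward, so the comparison concerns the growth phase of the oocyte. Shared mothers are not labelled, and p-values therefore measure the spread between single oocytes.

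Most Zfp genes encode C2H2 zinc finger proteins, in which a row of small zinc-binding folds reads DNA, each fold contacting a few bases. Many also carry a KRAB domain, which recruits the corepressor TRIM28 (KAP1) and with it histone methyltransferases that silence the bound site, often a transposable element or an imprinted locus. KRAB zinc finger genes have multiplied by local duplication and stand in clusters on a few chromosomes. In the oocyte and early embryo they are best known through Zfp57, whose maternal supply protects imprinted methylation after fertilization.

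Library depth ran from 8582493 to 12972366 mapped reads, so that 1 read was worth between 0.0771 and 0.117 RPM. The targeted gene Setd1b, matched by its position, was at 8.31, 16.7, 12.8 and 2.68 RPM in the cKO libraries and at 17.7, 16.3 and 8.61 RPM in the WT libraries. These ranges overlapped (limma adjusted p = 0.533), and reads over the deleted segment alone were not analysed here, so the RNA does not check the labels. Marker genes were looked up by name on their own strand, so a gene not found may still have a transcript under another name. Of 12 oocyte markers, 11 were found, and their summed level was 9057 to 15338 RPM in cKO and 12639 to 19166 RPM in WT. Of these 11, 10 had a log2 difference below 0, with a median of -0.24 against 0.12 over all transcripts tested, and none was past the threshold. Of 12 granulosa cell markers, 11 were found, 7 of them at a mean of at least 1 RPM, and their summed level was 92.0 to 106 RPM in cKO and 57.6 to 73.3 RPM in WT. The ranges of this sum did not overlap, and 6 of the 7 granulosa markers tested had a log2 difference above 0. Nr5a2 (34.1 RPM) and Cyp19a1 (25.001 RPM) were the most abundant by their mean over the 7 libraries, and every cKO oocyte lay above every WT oocyte for Nr5a2. The highest log2 differences were those of Inha (1.70, limma adjusted p = 0.225) and Wnt4 (1.195, limma adjusted p = 0.159), and none of the 7 was past the threshold. The granulosa markers found under 1 RPM were not tested. Of these, Hsd17b1 and Amhr2 had means of 0.724 and 0.223 RPM over the 7 libraries. Amh and Foxl2 had means of 0.0249 and 0.0235 RPM, below the value of 1 read. Each of these markers had a higher mean in cKO than in WT, from few reads, and the genotypes overlapped. The part of other cells in the results was not tested.

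The Zfp genes were mostly transcripts of low to middle abundance. The median member had 8.38 RPM, with quartiles of 3.51 and 21.9 RPM. There were 9 members at 100 RPM or more, 85 between 10 and 100 RPM and 110 under 10 RPM. The summed level of all members was 7523, 8690, 6575 and 3969 RPM in Setd1b cKO replicates 1 to 4 and 7833, 7429 and 4429 RPM in Setd1b WT replicates 1 to 3. The genotypes overlapped in this sum, with means of 6689 ± 2009 RPM (SD, n = 4) in cKO and 6563 ± 1860 RPM (SD, n = 3) in WT. In both genotypes 1 library stood apart, since 123 members had their lowest cKO value in cKO replicate 4 and 129 had their lowest WT value in WT replicate 3. The same 2 libraries also had the lowest summed oocyte marker level of their genotype, 9057 and 12639 RPM.

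**Figure D1:**
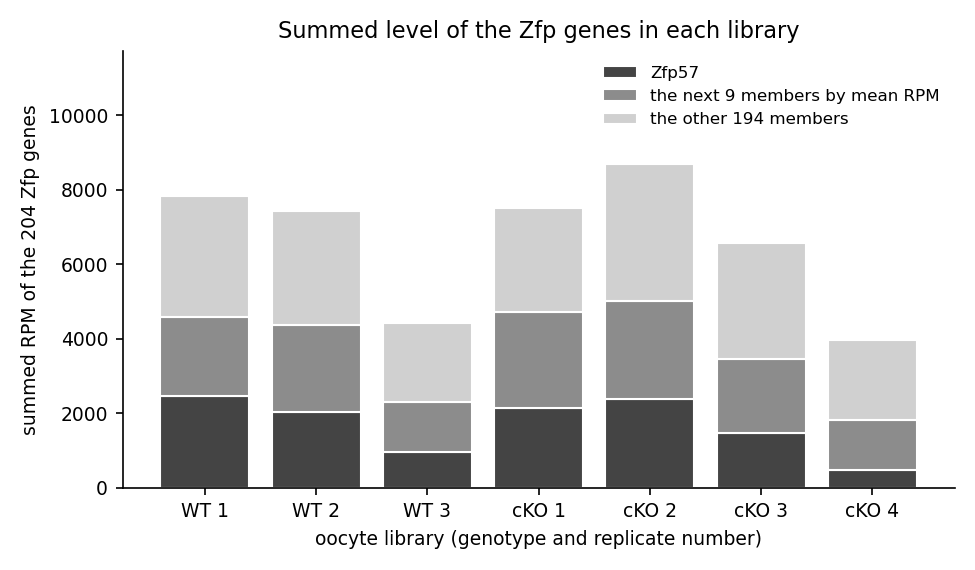
Summed RPM of the 204 Zfp genes in each of the 7 oocyte libraries (bars), divided into Zfp57, the next 9 members by mean RPM and the other 194 members. WT replicate 3 at 4429 RPM and cKO replicate 4 at 3969 RPM are lower than the other 5 libraries, which range from 6575 to 8690 RPM, and Zfp57 alone takes between 12.3% and 31.5% of the sum.

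Zfp57 was by far the most abundant member, with a mean of 1705 RPM, and per kb of exon it also led with 450 RPM per kb. It was at 2138, 2383, 1461 and 490 RPM in the cKO libraries and at 2467, 2043 and 950 RPM in the WT libraries. Both genotypes spanned a wide range that overlapped almost fully, and the lowest value of each was in the library that was low for the members in general. The means were 1618 ± 847 RPM (SD, n = 4) in cKO and 1820 ± 783 RPM (SD, n = 3) in WT, and the limma difference was -0.29 ± 0.53 on the log2 scale (SE, adjusted p = 0.814), less than the spread between oocytes. The deposited Zfp57 transcript (chromosome 17, 36996203 to 37014475, plus strand, GRCm38) began 7463 bp from the RefSeq start, so its promoter window is not printed. A fraction of 0.518 of the union of that span and the GENCODE gene was shared by both.

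Zfp970, a KRAB-like zinc finger gene, was second with 668 RPM and 307 RPM per kb. It was at 1212, 994, 583 and 385 RPM in the cKO libraries and at 577, 583 and 340 RPM in the WT libraries, so that the genotypes overlapped (0.57 ± 0.39 log2, SE, adjusted p = 0.444). Of its annotated sequence, 30.4% of the 75-base words also occur in another gene, the largest number of them in Zfp968. Single reads of that length could not be placed in these words. Per kb of exon, Zfp958 (57.5 RPM per kb), Zfp58 (55.8 RPM per kb), Zfp655 (43.2 RPM per kb) and Zfp979 (30.5 RPM per kb) followed. Of the 75-base words of Zfp58 and Zfp979, 44.8% and 23.6% also occur in another gene. None of these differed beyond the spread between oocytes, with log2 differences between -0.27 and 0.26 and adjusted p between 0.596 and 0.970. By RPM not scaled to length, Zfp277 with 291 RPM, Zfp655 with 242 RPM and Zfp960 with 228 RPM came next, and the Zfp960 transcript also covered Zfp97. The steadiest of the abundant members was Zfp277, at 293 ± 36.4 RPM (SD, n = 4) in cKO and 288 ± 46.4 RPM (SD, n = 3) in WT, and unlike most members it was not lowest in the 2 libraries that were low in general.

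**Figure D2:**
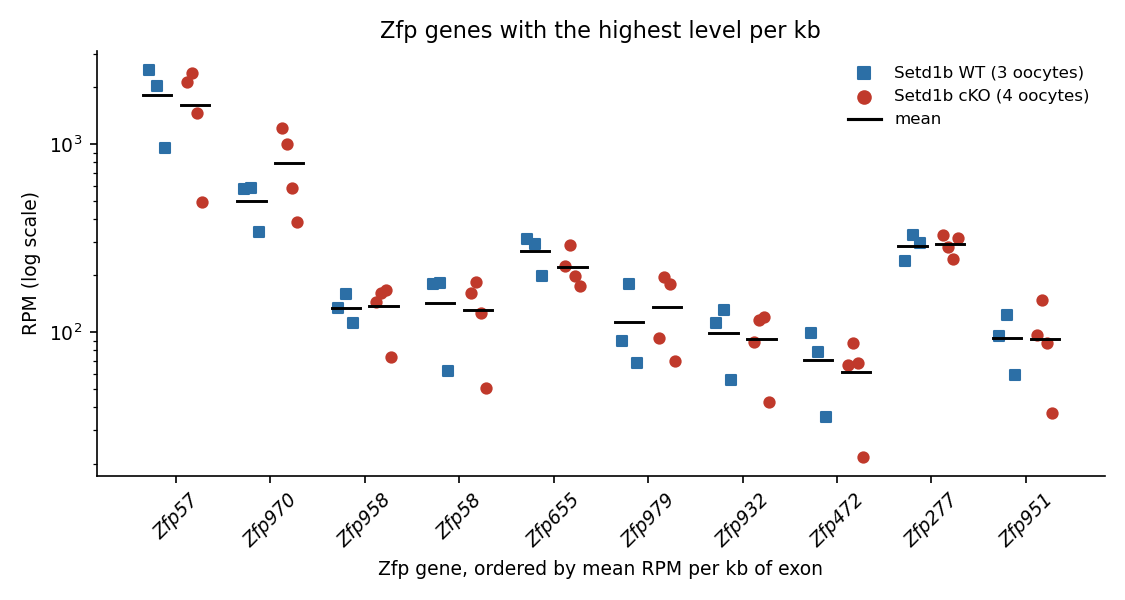
RPM (log scale) of the 10 Zfp genes with the highest mean RPM per kb of exon, ordered by that value, in each Setd1b WT oocyte (squares, 3) and Setd1b cKO oocyte (circles, 4), with the mean of each genotype as a line. All 10 genes overlap between genotypes, and Zfp57 lies highest, between 490 and 2467 RPM.

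The promoter of Zfp958 is shown as that of an abundant KRAB-like member, beside those of the members past the threshold whose deposited transcript began within 100 bp of the RefSeq start. The windows run from 250 bases before to 50 bases after the RefSeq start (GRCm38.p6), are written 5′ to 3′ on the strand of the gene in lower case, and have every CG in capitals, because the SETD1 complexes are known to bind CpG-rich promoters. Zfp958 (chr8:4612920-4613219, plus strand) holds 12 CG, Zfp12 (chr5:143234913-143235212, plus strand) 17, Zfp423 (chr8:87959546-87959845, minus strand) 21 and Zfp618 (chr4:62965317-62965616, plus strand) 59.
Zfp958: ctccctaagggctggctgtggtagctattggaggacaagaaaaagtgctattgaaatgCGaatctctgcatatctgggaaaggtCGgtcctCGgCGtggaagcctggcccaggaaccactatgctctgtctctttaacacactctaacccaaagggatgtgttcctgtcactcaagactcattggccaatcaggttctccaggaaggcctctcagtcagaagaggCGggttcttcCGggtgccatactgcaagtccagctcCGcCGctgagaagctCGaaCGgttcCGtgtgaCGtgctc
Zfp12: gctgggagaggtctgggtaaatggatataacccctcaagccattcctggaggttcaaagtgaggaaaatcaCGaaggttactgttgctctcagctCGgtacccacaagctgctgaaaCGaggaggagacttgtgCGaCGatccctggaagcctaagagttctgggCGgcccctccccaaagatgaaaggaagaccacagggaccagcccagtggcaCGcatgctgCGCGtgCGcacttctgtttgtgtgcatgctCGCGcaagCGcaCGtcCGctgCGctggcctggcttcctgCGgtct
Zfp423: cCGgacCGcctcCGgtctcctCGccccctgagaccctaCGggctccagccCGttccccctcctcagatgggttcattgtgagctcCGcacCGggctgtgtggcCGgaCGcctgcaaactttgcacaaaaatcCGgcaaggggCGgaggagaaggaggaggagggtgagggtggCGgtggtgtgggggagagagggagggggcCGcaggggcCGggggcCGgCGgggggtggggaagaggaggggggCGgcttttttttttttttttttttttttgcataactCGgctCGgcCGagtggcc
Zfp618: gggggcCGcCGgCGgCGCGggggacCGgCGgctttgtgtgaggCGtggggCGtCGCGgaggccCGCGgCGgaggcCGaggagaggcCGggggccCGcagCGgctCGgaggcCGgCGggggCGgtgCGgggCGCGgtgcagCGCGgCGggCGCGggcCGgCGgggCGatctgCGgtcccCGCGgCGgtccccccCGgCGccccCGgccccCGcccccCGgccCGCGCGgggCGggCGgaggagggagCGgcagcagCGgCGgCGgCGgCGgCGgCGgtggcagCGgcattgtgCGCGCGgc

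The windows differ widely in CG, from scattered CG in Zfp958 to a run of them across all of Zfp618, whose window had the most of all members. Of the members, 171 had a RefSeq promoter, with a median of 12 CG in 300 bases and quartiles of 8 and 20, against a median of 7 and quartiles of 3 and 20 over all 32851 promoters in the RefSeq table. The members were chosen at 1 RPM or more, whereas the RefSeq promoters were not filtered by level, and a comparison with other expressed genes was not made. Motifs were counted on both strands as a description, any overlap included. The ETS motif CCGGAAG was in 24.6% of the member promoters and 8.86% of all promoters, the NRF1 motif (GCGC, any base, TGCGC) in 8.77% and 4.60%, and the GC box GGGCGG in 45.6% and 35.7%. The E-box CANNTG was in 70.2% and 72.3%, and the TATA motif TATAAA in 4.09% and 13.6%. Of the printed windows, Zfp958 holds 1 ETS motif, Zfp12 holds 2 NRF1 matches and 1 GC box, Zfp618 holds 4 GC boxes and Zfp423 holds 2 GC boxes and 1 E-box. The 47 members with 20 or more promoter CG had a median log2 difference between genotypes of 0.03, and the 49 with 8 or fewer had a median of 0.16, against 0.12 over all transcripts tested.

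To ask which Zfp genes depended on Setd1b in the oocyte, cKO and WT were compared with limma on log2(RPM + 1) over the 18179 transcripts that reached 1 RPM in 3 or more libraries, of which 203 were members (Zfp39 did not pass). A transcript was past the threshold if it changed more than 2-fold at an adjusted p (Benjamini-Hochberg, over all transcripts tested) under 0.05. Among the members 4 rose in cKO, Zfp113, Zfp618, Zfp12 and Zfp825, and 1 fell, Zfp423. That is 1.97% higher and 0.493% lower, where 3.76% of all transcripts tested were higher and 1.95% were lower. At an unadjusted limma p under 0.05 there were 28 members (13.8%), 20 of them higher, against a background of 21.7%. In 16 members (7.88%) every cKO oocyte lay above every WT oocyte, against a background of 13.2%, and in 9 (4.43%) every cKO oocyte lay below, against 7.14%. No share of the members was thus above that of all transcripts.

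The typical member differed little between genotypes. The median log2 difference of the members was 0.09, with quartiles of -0.20 and 0.38, and that of all transcripts tested was 0.12, with quartiles of -0.21 and 0.46. Of the members, 121 lay above 0 and 82 below, and 148 lay within 0.5 of 0. With libraries scaled to a common median gene, the median of all transcripts moved to -0.03 and that of the members to -0.07, so that the sign of the members' median depended on the scaling. The members' median lay -0.037 from that of all transcripts, a distance that a common shift cannot change. It lay between -0.054 (quantile normalisation) and 0.0058 (no filter) in the other fits over all libraries, and between -0.15 and 0.055 in the fits that left out libraries. By level, the log2 median of the members was -0.03 at 100 RPM or more, 0.03 between 10 and 100 RPM and 0.14 under 10 RPM. All transcripts tested showed the same order, with -0.01, 0.07 and 0.21.

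**Figure D3:**
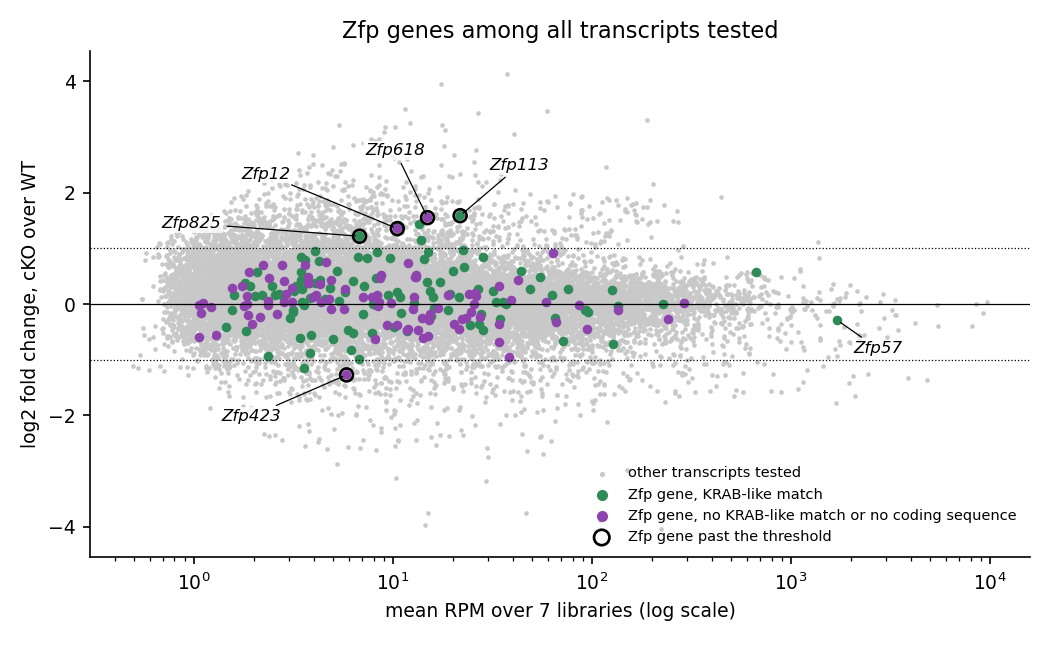
Log2 fold change (Setd1b cKO over WT, on log2(RPM + 1)) against mean RPM over 7 libraries (log scale) for the 203 Zfp genes tested, coloured by a KRAB-like match in the protein, over the other transcripts tested (grey). The 5 circled genes are past the threshold, the dotted lines mark a 2-fold change, and 148 of the Zfp genes lie within 0.5 of 0.

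Zfp113, a gene with a KRAB-like match and 8 finger matches on chromosome 5 (138139702 to 138157535, minus strand), showed the largest rise of the members past the threshold on log2(RPM + 1) over all libraries. On the deposited log2 values and with a pseudocount of 0.1 RPM that of Zfp618 was larger. The rise of Zfp618 was also the larger without cKO replicate 4 and in the replicate block (1.62 against 1.48 log2), and without WT replicate 2 (1.76 against 1.38). Zfp113 was at 32.1, 31.2, 22.1 and 38.2 RPM in the cKO libraries and at 10.6, 6.86 and 11.4 RPM in the WT libraries. Every cKO oocyte thus lay well above every WT oocyte. On the log2 scale it rose by 1.59 ± 0.27 (SE, limma adjusted p = 0.00895), and the mean in cKO was 3.21 times that in WT. The call was lost only without WT replicate 2, with an adjusted p of 0.0535 over the 6 libraries left. Its cluster neighbours Zfp157 and Zfp68 were at log2 differences of -0.15 and -0.72, neither past the threshold.

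Zfp618 had 4 finger matches and no KRAB-like match, and its protein is known as a partner of the hydroxymethylcytosine reader UHRF2. The gene was at 31.1, 20.9, 14.98 and 17.7 RPM in cKO. In WT it was at 7.37, 8.79 and 3.74 RPM. All cKO values lay above all WT values, with 1 cKO oocyte higher than the others. The rise was 1.55 ± 0.33 log2 (SE, limma adjusted p = 0.0223). It is the member with the CG-densest promoter among those printed above. The call was lost without cKO replicate 1 or any of the 3 WT replicates, with adjusted p between 0.0550 and 0.0639.

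Zfp12, a gene with 15 finger matches (chromosome 5, 143235148 to 143248834, plus strand), was at 10.8, 9.55, 14.98 and 23.9 RPM in cKO and at 4.53, 5.09 and 4.87 RPM in WT. The WT values were narrowly grouped and the cKO values were higher and more spread (1.36 ± 0.32 log2, SE, limma adjusted p = 0.0335). Its nearest member was Zfp316, which lies on the opposite strand with its 3′ end 862 bp from that of Zfp12. Zfp316 was at 17.9, 10.5, 20.7 and 24.9 RPM in cKO and at 6.96, 6.78 and 8.70 RPM in WT. It did not pass the threshold by a small margin (1.15 ± 0.30 log2, SE, limma adjusted p = 0.0506), although the genotypes did not overlap. In both genes cKO replicate 4 had the highest value, unlike most members. Whether reads were counted by strand is not stated for these files, so reads of the pair that run past a 3′ end cannot be told apart. The same limit holds for the 44 of 204 members whose transcript overlapped a deposited transcript on the opposite strand. The Zfp12 call was lost without cKO replicate 1 or 3 or any WT replicate (adjusted p up to 0.114). It was also lost with a pseudocount of 5 RPM, without the filter, on centring, on quantile normalisation and in the fit to recovered reads.

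Zfp825, a gene with a KRAB-like match, was at 7.13, 8.81, 14.6 and 7.11 RPM in cKO and at 2.83, 3.39 and 3.74 RPM in WT. The genotypes did not overlap (1.22 ± 0.30 log2, SE, limma adjusted p = 0.0416), but this was the least stable of the calls. It was kept in only 1 of the 7 fits that each left out a library, the one without cKO replicate 4, and the adjusted p reached 0.147. It was lost under the same 5 other settings as Zfp12. The deposited transcript (chromosome 13, 74478843 to 74482994, minus strand) covered only a small part of the annotated gene, with a shared span of 0.194, and began 10967 bp from the RefSeq start. Of its 75-base words 17.0% also occur in another gene, the largest number of them in Gm46430, so its values are uncertain.

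Zfp423 was the member that fell. Its protein, known from the commitment of fat cells and from cerebellar development, had 27 matches to the C2H2 finger pattern and no KRAB-like match. The gene lies on chromosome 8 (87661810 to 87959595, minus strand). It was at 2.57, 3.71, 3.40 and 3.38 RPM in cKO and at 8.42, 8.56 and 10.9 RPM in WT. Both genotypes were narrowly grouped and clearly apart (-1.27 ± 0.26 log2, SE, limma adjusted p = 0.0184). The call was lost without cKO replicate 1 or 3 or any WT replicate, with adjusted p up to 0.0709, and with a pseudocount of 5 RPM. Its paralogue Zfp521, also with 27 finger matches, was at 7.62, 4.61, 2.61 and 2.91 RPM in cKO and at 4.21, 0.617 and 2.62 RPM in WT, which overlapped (0.71 ± 0.45 log2, SE, adjusted p = 0.401).

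**Figure D4:**
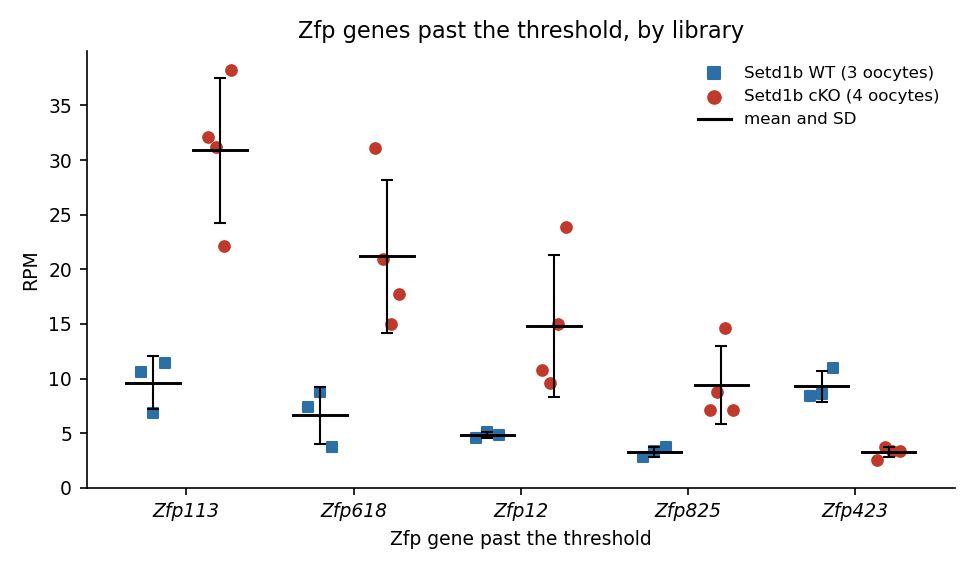
RPM of the 5 Zfp genes past the threshold in each Setd1b WT oocyte (squares, 3) and Setd1b cKO oocyte (circles, 4), with the mean and SD of each genotype in black. Zfp113, Zfp618, Zfp12 and Zfp825 lie higher in every cKO oocyte than in any WT oocyte, and Zfp423 lies lower, at 2.57 to 3.71 RPM against 8.42 to 10.9 RPM.

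Without cKO replicate 4, the library with the lowest level of the members, 8 members were higher and 1 was lower (4.43% in all, against 7.11% of all transcripts in that fit). The additional ones were Zfp386, Zfp677, Zfp959 and Zfp108. The deposited Zfp108 transcript also covered Zfp93, so its values are those of both genes. Without WT replicate 3 only Zfp113 was higher and none was lower (limma, 0.493% against 4.95% of 18179 transcripts). Without both libraries, an alternative chosen after these libraries were seen to stand apart, 8 members were higher and 3 were lower (5.42%, against 8.45% of all transcripts), among them all 5 members past the threshold over all libraries. Zfp418 and Zfp939 were the additional members that were lower.

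Below the threshold, the members with the smallest p after Zfp316 were Zfp947, Zfp111, Zfp141, Zfp418, Zfp940, Zfp14, Zfp820, Zfp108 and Zfp994, of which the Zfp994 transcript also covered a second coding gene. Zfp947 was at 12.1, 15.3, 17.2 and 12.6 RPM in cKO and at 4.13, 10.6 and 2.06 RPM in WT (1.42 ± 0.40 log2, SE, limma adjusted p = 0.0669). All its cKO values lay above the WT values, of which WT replicate 2 was the highest, and without that library Zfp947 was past the threshold (adjusted p = 0.0302). Zfp111 was at 28.6, 26.4, 26.1 and 26.3 RPM in cKO and at 45.8, 48.0 and 37.3 RPM in WT (-0.67 ± 0.20 log2, SE, adjusted p = 0.0794). The 4 cKO values lay within a few RPM of each other, so the difference was steady but below 2-fold. Zfp418 was at 1.98, 2.80, 2.61 and 0.699 RPM in cKO and at 6.07, 7.63 and 3.27 RPM in WT (-1.15 ± 0.37 log2, SE, adjusted p = 0.0996). The other 6 genes had log2 differences between 0.81 and 0.98, with adjusted p between 0.0860 and 0.135.

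The members were concentrated on a few chromosomes. Chromosome 7 held 49 members (24.02%) and chromosome 17 held 26 (12.7%). Members made up 6.62% of the 740 named genes at 1 RPM or more on chromosome 7 and 5.41% of the 481 on chromosome 17, against 1.87% over all chromosomes. Defined as at least 3 members whose neighbouring starts lie at most 500 kb apart, 20 chromosome clusters held 101 members, and 103 members lay outside them. Of the clustered members 1 was past the threshold (Zfp113, 0.990%), with a median log2 difference of 0.04. Of the others 4 were (3.92%), with a median of 0.12, and 5.71% of all transcripts tested were past it.

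The largest cluster, on chromosome 17 from 21008900 to 23193316 (GRCm38), held 13 members, of which 12 had a KRAB-like match. Its summed level was 292 ± 57.6 RPM (SD, n = 4) in cKO and 229 ± 52.9 RPM (SD, n = 3) in WT. The median log2 difference was 0.28, with a range from -0.46 for Zfp760 to 1.42 for Zfp947, and no member was past the threshold. Zfp946, its most abundant member, was at 54.4, 62.4, 59.2 and 74.1 RPM in cKO and at 46.2, 42.9 and 43.8 RPM in WT. The genotypes did not overlap, but the difference was small (0.48 ± 0.20 log2, SE, adjusted p = 0.191).

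The second cluster by size, on chromosome 7 from 29768308 to 30140835, packed 12 members into 373 kb. Its members went in both directions, from -0.99 for Zfp74 to 0.95 for Zfp14 on the log2 scale. Zfp940 was at 35.04, 29.9, 25.3 and 51.3 RPM in cKO and at 19.0, 23.2 and 14.2 RPM in WT (0.85 ± 0.28 log2, SE, adjusted p = 0.105). Zfp74 was at 4.85, 7.82, 4.53 and 1.63 RPM in cKO and at 10.3, 9.87 and 8.14 RPM in WT (-0.99 ± 0.38 log2, SE, adjusted p = 0.159). None of the 12 was past the threshold. All cKO oocytes lay above the WT oocytes in 2 members (16.7%, against 13.2% of all transcripts) and below them in 3 (25%, against 7.14%).

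A small cluster on chromosome 7 from 7114690 to 7210048, with Zfp954, Zfp418 and Zfp772, had the lowest median of the 20, at -0.87 on the log2 scale. Its summed level was 6.23 ± 4.17 RPM (SD, n = 4) in cKO and 13.2 ± 6.46 RPM (SD, n = 3) in WT. These are few reads, and cKO replicate 4 had 0 reads for 2 of the 3 genes. A cluster on chromosome 7 from 43296200 to 43618593, with Zfp715, Zfp719 and Zfp819, had the highest median, at 0.80. Zfp715 was at 16.5, 18.7, 13.9 and 17.2 RPM in cKO and at 13.4, 13.3 and 10.5 RPM in WT (0.39 ± 0.23 log2, SE, adjusted p = 0.365). The other 16 clusters had medians between -0.41 and 0.46. With neighbours at most 250 kb apart there were 16 clusters of 81 members, and with 1 Mb there were 20 of 115.

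**Figure D5:**
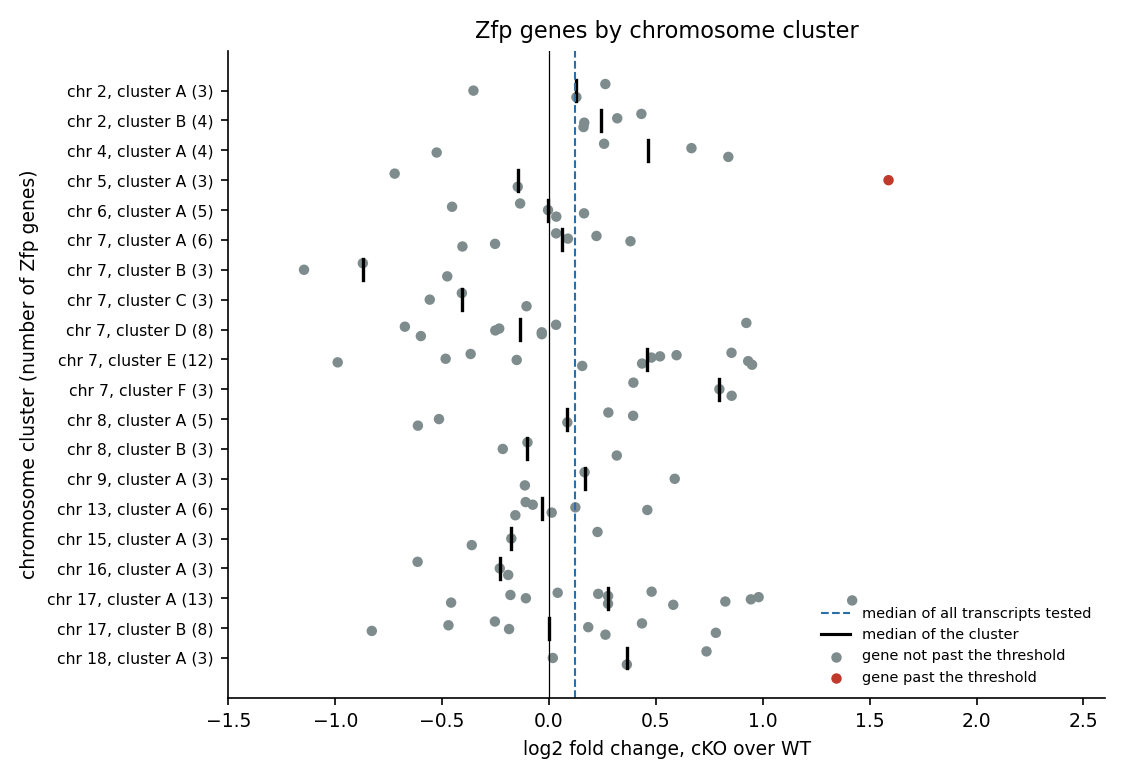
Log2 fold change (Setd1b cKO over WT) of the members in each of 20 chromosome clusters (points), in chromosome order and lettered within a chromosome, with the number of members in brackets. Black bars are the cluster medians and the dashed line is the median of all transcripts tested, 0.12. Zfp113 on chromosome 5 is the only clustered gene past the threshold, and most clusters hold members on both sides of 0.

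By protein, 110 of the 201 members with a coding sequence had a KRAB-like match before the first finger match. At least 1 match to the C2H2 finger pattern was found in 196, and the 201 had a median of 11 and a maximum of 30 matches. Of 109 KRAB-like members tested, 2 were higher and 0 lower (limma), 1.83% against 5.71% of all transcripts in both directions together. At an unadjusted p under 0.05 there were 14 higher and 4 lower, 16.5% against 21.7%. Their median log2 difference was 0.16. Of the 91 without a match, 2 were higher and 1 lower (3.30%), and the median was 0.03. The difference between the classes was not tested. Sequence shared with another gene was found in part of the members, with 37 sharing at least 10% and 12 at least 50% of their 75-base words, and 92 sharing none. Reads from shared sequence do not pass a mapping quality filter, so the values of the chromosome 2 group of Zfp965, Zfp966, Zfp967, Zfp968 and Zfp969, at 1.59 to 4.33 RPM, are uncertain.

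Of a list of 22 Zfp genes with known roles, 16 were members, and 1 of them, Zfp423, was past the threshold, where 5.71% of all transcripts tested were. The imprint and retroelement regulators beside Zfp57 were far below it in level and did not differ beyond their spread. Zfp445, which acts with Zfp57 at imprinted loci, was at 11.2 ± 2.90 RPM in cKO (SD, n = 4) and 9.50 ± 2.48 RPM in WT (SD, n = 3), and Zfp809, a silencer of proviruses, was at 2.84 ± 0.985 and 2.46 ± 1.24 RPM. Zfp568, a repressor of a placental Igf2 transcript, was at 10.5 ± 3.08 and 11.5 ± 1.51 RPM. Among genes with other roles, the spindle and kinetochore factor Zfp207 was at 82.5 ± 35.6 and 110 ± 45.8 RPM. The nuclear matrix protein gene Zfp638 was at 58.9 ± 10.1 and 74.8 ± 18.2 RPM. Both overlapped between genotypes. The pluripotency genes Zfp281 and Zfp42 (Rex1) were at 13.2 ± 7.82 and 17.4 ± 3.93 RPM and at 1.90 ± 0.924 and 1.80 ± 0.623 RPM. Zfp541, a germ cell gene known from male meiosis, was at 5.74, 7.99, 4.88 and 7.11 RPM in cKO and at 12.1, 8.25 and 11.04 RPM in WT, all cKO oocytes below (-0.63 ± 0.27 log2, SE, adjusted p = 0.205). Zfp36 (tristetraprolin), which binds AU-rich RNA through a different finger type and has no C2H2 match, was at 2.24 ± 0.530 and 1.46 ± 1.32 RPM. The log2 differences of Zfp148, Zfp217, Zfp318 and Zfp91 lay between -0.36 and 0.53, and none passed.

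Of 14 genes of the corepressor machinery that KRAB zinc finger proteins recruit, 12 were found by name on their own strand and tested. Of these, 1 was higher and 1 lower (8.33% each, against 3.76% and 1.95% of all transcripts). Trim28 itself was at 42.4 ± 8.32 RPM (SD, n = 4) in cKO and 49.0 ± 1.92 RPM (SD, n = 3) in WT (-0.22 log2, adjusted p = 0.624). The histone deacetylase gene Hdac1 rose from 21.0 ± 2.91 RPM in WT to 59.5 ± 2.48 RPM in cKO (1.47 log2, limma adjusted p = 0.00417), and the DNA methyltransferase gene Dnmt1 fell from 701 ± 36.2 to 288 ± 17.1 RPM (-1.28 log2, limma adjusted p = 0.00545). The other 10 had log2 differences between -0.33 and 0.27. Of 2 related zinc finger families at 1 RPM or more, none of 19 Zbtb genes was past the threshold (limma, with 3 at an unadjusted p under 0.05, 15.8% against 21.7% of all transcripts). Of 19 Zscan and Zkscan genes 4 were higher (21.1%, against 3.76% of all transcripts), Zscan10 and 3 Zscan4 copies, and none was lower. At an unadjusted limma p under 0.05 there were 5 higher and 1 lower (31.6%, against 21.7%). The Zscan4 copies are near-identical genes that can share reads, so they are uncertain and are not separate evidence.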

How the data were processed

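RNA was measured in 7 single-oocyte libraries, 4 Setd1b cKO and 3 Setd1b WT. Amplified cDNA was sequenced as 75 bp single reads, trimmed with trim galore v0.4.2 and mapped with Hisat v2.0.5 to GRCm38. Hits of mapping quality under 20 were removed, which affects copied genes, and reads were quantified in SeqMonk over merged oocyte transcripts. The submitters' processing notes also list bcl2fastq 1.8.4 and featureCounts 1.4.4. Use of the strand is not given in the sources used here. In the deposited table the authors give log2 RPM, relative to the mapped reads of a library, with 0.9 read standing for 0.

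Values of 0 reads were set to 0 RPM, and limma 3.58.1 (R 4.3.3, lmFit and eBayes with trend) compared the genotypes on log2(RPM + 1) over all 18179 transcripts that reached 1 RPM in 3 or more libraries, with Benjamini-Hochberg adjustment. A fold change on this scale understates the change of low genes. The RPM steps gave whole reads (within 0.1 read) for 100% of the values, and limma voom on these reads called 443 transcripts higher and 328 lower, against 683 and 355 on the log values. The fit was tested on simulated reads. These held no shift of whole libraries like that of cKO replicate 4 and WT replicate 3, so the test did not cover it. No pair of libraries agreed within sampling noise (chi-square per degree of freedom of at least 15.3).

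The members and gene lists were chosen with earlier results of these data known. Named genes were the members past the threshold, the 10 highest per kb and 5 highest in RPM, the 10 next by p, the most abundant and most changed of each cluster, a list of known roles, and the genes at the limit of 1 RPM. Gene models, exon lengths and coding sequences came from GENCODE M21 (GRCm38). All 204 members matched by ID, levels per kb were given for the 183 whose transcript shared at least 0.5 of the gene's span, and 12 transcripts also held another coding gene. Promoters came from RefSeq (GRCm38.p6), and protein sequences were translated, with fingers matched as C, 2 to 4 residues, C, 12 residues, H, 3 to 5 residues, H. KRAB-like matches used a consensus of the A box. Alternatives were pseudocounts of 0.1 and 5 RPM, deposited log2 values, no filter or a mean of at least 4 RPM, centring, quantile normalisation, voom, a replicate block, p alone, and each library left out. Python 3.11.15, numpy 2.4.6, pandas 2.3.3 and matplotlib 3.10.9 were used.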

Additional observations from a re-analysis of the deposited data

Results flagged for a closer look

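In the 4 Setd1b cKO oocytes the values of 70 named members were examined for a sample far from the others, and 2 had one, where chance gives about 1 in 20. Zfp111 was at 28.6 RPM in cKO replicate 1 and between 26.1 and 26.4 RPM in the other 3, a gap that is large only against the narrow range of these values. Zfp667 was at 1.65 RPM in cKO replicate 2 and between 0.958 and 1.049 RPM in the other 3. Neither was in cKO replicate 4, the library with the lowest level of the members in general, and neither gene was past the threshold.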

How the results depend on the processing

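Among the members, the 4 higher and 1 lower over all libraries became 2 and 0 with a pseudocount of 5 RPM, 2 and 1 without the filter, on centring, on quantile normalisation and with voom, and 5 and 1 at a mean of at least 4 RPM. The share of members past the threshold was below that of all transcripts in each of these fits, at 0.985% against 3.04% with a pseudocount of 5 RPM, 1.47% against 2.21% without the filter, 1.48% against 5.44% on centring, 4.79% on quantile normalisation and 4.24% with voom, and 4.26% against 6.17% at a mean of at least 4 RPM. The counts stayed at 4 and 1 with a pseudocount of 0.1 RPM, on the deposited values and by adjusted p alone. That was 2.46% against 5.53% of all transcripts with a pseudocount of 0.1 RPM and 5.44% on the deposited values. By adjusted p alone 1118 of all 18179 transcripts passed. Zfp113 and Zfp618 were past the threshold in each of these fits. Leaving out libraries gave between 1 and 8 higher and between 0 and 3 lower, with fewer samples in each fit. These were 0.493% to 5.42% of the members, where 1.59% to 8.45% of all transcripts were past the threshold. The members' share was the lower in each of these fits. The replicate block over the 6 libraries with shared numbers gave 10 and 1 (5.42%, against 7.61% of all transcripts), but the numbers mark nothing shared by the labels, the deviations of same-numbered libraries correlated at 0.19, 0.29 and -0.13, and not every library correlated best with its own number.

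Of the named members, the 5 past the threshold kept their direction in every fit. Members close to 0, none past the threshold in any fit, changed sign as follows, by log2 fold change. They were on centring Zfp42 (-0.15), Zfp78 (-0.12), Zfp277 (-0.13) and Zfp960 (-0.15), on the deposited values Zfp42 (-0.065), with a pseudocount of 0.1 RPM Zfp42 (-0.047), with a pseudocount of 5 RPM Zfp384 (0.0037), on quantile normalisation Zfp42 (-0.25), Zfp78 (-0.0020) and Zfp809 (-0.040), with the replicate block Zfp42 (-0.098), Zfp57 (0.21), Zfp58 (0.29), Zfp148 (0.024), Zfp277 (-0.012), Zfp472 (0.17), Zfp932 (0.20), Zfp951 (0.28) and Zfp958 (0.24), and with voom Zfp42 (-0.15). Over the fits that left out libraries their ranges were Zfp42 -0.28 to 0.28, Zfp57 -0.70 to 0.21, Zfp58 -0.62 to 0.29, Zfp78 -0.54 to 0.43, Zfp91 -0.35 to 0.21, Zfp120 -0.0013 to 0.64, Zfp148 -0.48 to 0.024, Zfp277 -0.11 to 0.13, Zfp384 -0.19 to 0.12, Zfp472 -0.68 to 0.17, Zfp560 -0.016 to 0.39, Zfp707 -0.54 to 0.98, Zfp809 -0.14 to 0.41, Zfp932 -0.50 to 0.20, Zfp951 -0.39 to 0.28, Zfp958 -0.16 to 0.24, Zfp960 -0.26 to 0.18, Zfp961 -0.39 to 0.13 and Zfp979 -0.036 to 0.65. Depth limits the lowest members, since 1 RPM was between 8.58 and 12.97 reads.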
